A study of Mus musculus with 21 samples.

Results

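The regions described here are 518 promoter peaks of the corepressor Cbfa2t3 that shared no base with a peak of the zinc finger protein Zbtb1 in *Ebf1*-deficient lymphoid progenitors (LPs). They were the entries of the Cbfa2t3 ChIP-seq peak list whose annotation was a promoter or transcription start site and that did not overlap any of the 5898 Zbtb1 peaks. They made up 67.0% of the 773 Cbfa2t3 promoter peaks and 8.52% of all 6077 Cbfa2t3 peaks. The other 255 promoter peaks (33.0%) shared bases with a Zbtb1 peak, against 23.2% of the 5304 Cbfa2t3 peaks outside promoters. Both the annotation and the overlap come from the peak lists, so the regions were chosen by measured values of the ChIP-seq and these counts are a description without a test.

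The series holds 21 samples of 1 mouse LP line of C57BL6/J origin, which lacks the B lineage factor Ebf1 and was grown on OP9 stromal cells with SCF, IL-7 and Flt3L. ChIP-seq was done with antibodies to Zbtb1 and to Cbfa2t3 on 2 samples each, beside 2 input samples, in LPs that had received no Notch signal and no sgRNA. For QuantSeq, which counts reads at the 3′ ends of mRNAs, Cas9-expressing LPs received a pool of sgRNAs against luciferase (sgControl), *Cbfa2t3*, *Zbtb1*, *Cbfa2t2* or *Lmo2*, were sorted 5 days later and gave 3 libraries per group. All groups therefore share the *Ebf1* deficiency, the stroma, the cytokines and Cas9, and each is a pool of edited cells of a single line rather than a clone or an animal. The study describes the 3 libraries of a group as independent replicates, and p-values measure the spread between them.

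Cbfa2t3, also called ETO2 or MTG16, is a corepressor of the ETO family that does not bind DNA by itself. It reaches chromatin through DNA-binding partners such as the E proteins, Tal1 or Lyl1 with Lmo2 and Ldb1, Gata factors and Runx factors, and it recruits NCoR and histone deacetylases. E proteins bind E-boxes, short sites of which CAGCTG and CATCTG are common forms in lymphoid cells.

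All 518 peaks were 378 bp wide from start to end. The authors' peak score, a normalised read count given by HOMER, ranged from 20.6 to 326.9 with a median of 27.6 and quartiles at 22.8 and 37.7. A score of at least 30 was reached by 217 peaks (41.9%) and one of at least 100 by 17. Promoter peaks shared with Zbtb1 had a median score of 28.1, Cbfa2t3 peaks outside promoters without Zbtb1 had 32.4, and those outside promoters with Zbtb1 had 42.35. The score was deposited once per peak for both replicates together, so that it carries no replicate error. The whole list had a median of 33.2, so the regions were on the weaker side of it, and the cumulative plot of scores shows the promoter classes nearly on top of each other.

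**Figure D1:**
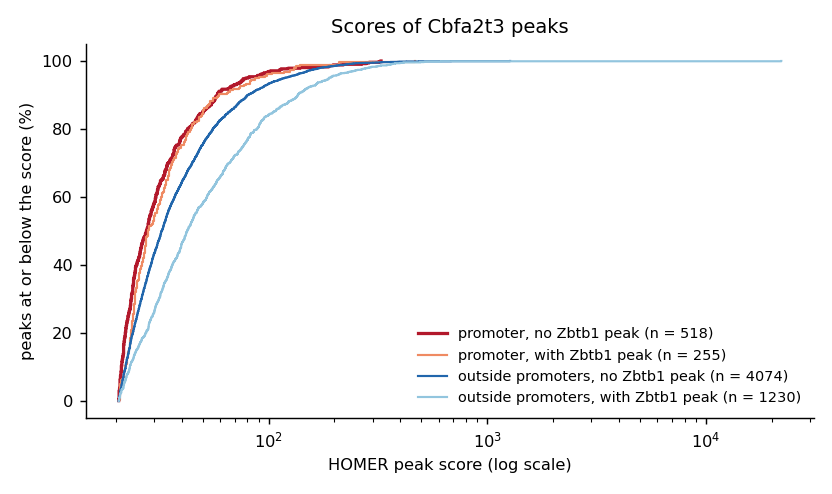
The horizontal axis is the HOMER peak score on a log scale and the vertical axis the percentage of peaks at or below it, for 4 classes of Cbfa2t3 peaks. The curve of the 518 promoter peaks without a Zbtb1 peak runs beside that of the 255 shared promoter peaks, with medians of 27.6 and 28.1, and to the left of both classes outside promoters, with medians of 32.4 and 42.35.

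At the overlap limit, the regions nearest to a Zbtb1 peak were those of *Haus8*, 3 bp away, *Wtap*, 7 bp away, and *Nr2f6*, 8 bp away. On the other side of the limit, *Tmem123*, *Ehd1* and *Ywhaq* shared 8, 10 and 11 bp with a Zbtb1 peak. Such cases were few. The gap to the nearest Zbtb1 peak had a median of 42605 bp, was under 100 bp for 23 regions and under 1 kb for 79, and was 10 kb or more for 368. At the limit of the score, *Supt4a*, *Emg1* and *Mef2a* stood at 20.6, the lowest value of the whole list.

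To show what the strongest regions look like, 8 stretches are given below from the peaks of highest score among genes with a mean above 10 CPM in sgControl, where CPM are reads scaled to the same total in every library. They are plus-strand sequence of mouse GRCm38, the assembly behind mm10, as held by RefSeq, with annotated untranslated bases left out. Capitals mark the E-boxes CAGCTG and CATCTG and the Runx core TGTGGT, each on either strand, so that CATCTG can read CAGATG and TGTGGT can read ACCACA.
Pgls (chr8:71591521-71591720): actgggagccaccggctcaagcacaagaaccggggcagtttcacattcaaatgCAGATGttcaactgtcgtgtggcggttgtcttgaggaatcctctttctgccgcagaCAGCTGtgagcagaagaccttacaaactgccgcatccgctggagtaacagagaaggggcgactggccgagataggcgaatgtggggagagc
Sla2 (chr2:156887193-156887392): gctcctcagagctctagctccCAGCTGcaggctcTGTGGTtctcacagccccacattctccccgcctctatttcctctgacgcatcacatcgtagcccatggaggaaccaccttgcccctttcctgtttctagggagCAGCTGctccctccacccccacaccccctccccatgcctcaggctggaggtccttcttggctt
Galk1 (chr11:116012720-116012919): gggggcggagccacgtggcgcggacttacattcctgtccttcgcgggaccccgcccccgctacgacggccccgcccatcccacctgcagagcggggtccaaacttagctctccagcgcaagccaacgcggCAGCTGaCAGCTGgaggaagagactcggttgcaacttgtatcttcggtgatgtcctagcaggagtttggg
Arpp21 (chr9:112217352-112217551): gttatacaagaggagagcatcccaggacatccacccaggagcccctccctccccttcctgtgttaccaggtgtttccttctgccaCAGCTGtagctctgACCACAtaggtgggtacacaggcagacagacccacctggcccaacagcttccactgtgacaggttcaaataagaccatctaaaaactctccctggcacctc
Poll (chr19:45560175-45560374): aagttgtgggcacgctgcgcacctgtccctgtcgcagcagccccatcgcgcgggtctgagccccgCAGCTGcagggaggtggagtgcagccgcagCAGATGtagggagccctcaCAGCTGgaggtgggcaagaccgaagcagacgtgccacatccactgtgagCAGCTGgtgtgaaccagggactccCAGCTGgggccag
Neil1 (chr9:57148324-57148523): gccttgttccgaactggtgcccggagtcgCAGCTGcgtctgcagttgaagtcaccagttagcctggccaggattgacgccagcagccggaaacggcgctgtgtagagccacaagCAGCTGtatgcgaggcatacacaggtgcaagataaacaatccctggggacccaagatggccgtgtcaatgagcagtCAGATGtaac
Dclre1c (chr2:3423863-3424062): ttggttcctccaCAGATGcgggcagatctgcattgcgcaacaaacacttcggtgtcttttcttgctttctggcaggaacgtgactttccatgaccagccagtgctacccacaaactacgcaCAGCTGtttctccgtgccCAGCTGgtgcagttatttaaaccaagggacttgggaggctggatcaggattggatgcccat
Hmga1 (chr17:27555916-27556115): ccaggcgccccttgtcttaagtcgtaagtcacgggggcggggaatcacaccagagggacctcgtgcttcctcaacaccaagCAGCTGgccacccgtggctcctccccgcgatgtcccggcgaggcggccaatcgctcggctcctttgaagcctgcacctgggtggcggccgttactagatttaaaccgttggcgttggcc
Every one of these 8 stretches held at least 1 CAGCTG, and that of *Poll*, a DNA polymerase of the repair of double-strand breaks, held 4 copies. *Galk1*, the first enzyme of galactose use, had 2 copies side by side. In *Arpp21* and *Sla2*, a CAGCTG stood within a few bases of a Runx core.

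The letters were then searched in the 200 bp at the centre of each peak, on both strands, in the 517 regions with sequence. CAGCTG was present in 237 of them (45.8%, exact 95% binomial interval 41.5 to 50.2%), against 30.6% (24.99 to 36.6%) of the shared promoter peaks and 9.59% of the 1523 Zbtb1 promoter peaks without Cbfa2t3. It was present in 12.3% of equal windows at the start sites of all protein-coding genes and in 10.2% of flanking windows, 5 kb away from the regions. CATCTG was present in 18.4% of the regions, 10.6% of the shared promoter peaks, 9.04% of all start sites and 15.6% (13.4 to 18.0%) of the flanking windows, near the share of the regions. At least 1 of the E-box letters was present in 290 regions (56.1%). The intervals cover counting error only, since neighbouring and related promoters are not independent. A match is a description of letters and not a site.

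The Runx core TGTGGT was present in 95 regions (18.4%, 15.1 to 22.0%), in 19.6% of the shared promoter peaks, in 9.70% of all start sites and in 16.8% (14.5 to 19.2%) of the flanking windows, with an interval that overlaps that of the regions. Outside promoters it was far more frequent, with 42.5% of the Cbfa2t3 peaks without Zbtb1 and 63.5% of those with it. CAGCTG, by contrast, was present in 51.2% and 39.2% of those classes, so that both inside and outside promoters it was more frequent where no Zbtb1 peak was found. The GATA letters AGATAA were present in 3.29% of the regions, 5.21% of all start sites and 8.82% of the flanking windows. Of the ETS letters, CCGGAAG was present in 13.0% and GAGGAAG in 17.4% of the regions, against 9.71% and 9.82% of all start sites.

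Letters typical of promoters were at other levels. The GC box GGGCGG, bound by Sp and Klf proteins, was present in 48.2% of the regions (43.8 to 52.6%), 54.1% of the shared promoter peaks, 66.0% of the Zbtb1 promoter peaks without Cbfa2t3 and 41.6% of all start sites. CCAAT was present in 19.5%, 26.3%, 16.4% and 27.6% of these sets. Searched as well were CACGTG, a form of E-box bound by Myc and Usf proteins (9.09% of the regions, 5.62% of all start sites), the core of the CRE (letters TGACGT, 7.35% and 6.72%), the Rbpj core TGGGAA (14.1%, 15.9%), the Nrf1 letters GCGCATG (2.90%, 3.72%), the YY1 letters AAGATGG (3.09%, 4.86%) and part of a Zbtb7c motif, TGGTGGT (3.29%, 2.90%). In shared promoter peaks the last of these was present in 8.24%. None of the Runx letters, both E-box forms, the Gata letters and both ETS forms was present in 129 of the 517 regions (24.95%).

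**Figure D2:**
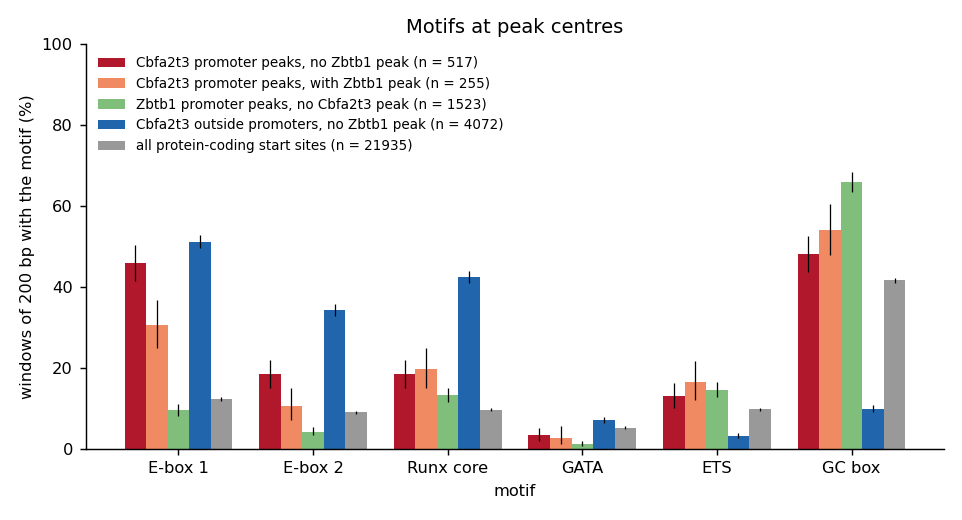
Bars give the percentage of 200 bp windows that hold each motif, with exact 95% binomial intervals, in 5 sets of regions; E-box 1 is the CAGCTG form, E-box 2 the CATCTG form and ETS the form CCGGAAG. E-box 1 stands at 45.8% in promoter peaks without Zbtb1, between the 30.6% of shared promoter peaks and the 51.2% of peaks outside promoters, while the Runx core stays at 18.4% and 19.6% in both promoter classes.

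CAGCTG was also concentrated at the peak centres. It lay within 50 bp of the centre in 177 regions (34.2%), in 19.6% of the shared promoter peaks and in 6.68% of start site windows. For the Runx core these shares were 10.8%, 12.2% and 5.31%, and for the GC box 33.1%, 36.1% and 29.7%. The bin from 0 to 20 bp held CAGCTG in 9.48% of the regions, against 1.35% of start site windows.

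**Figure D3:**
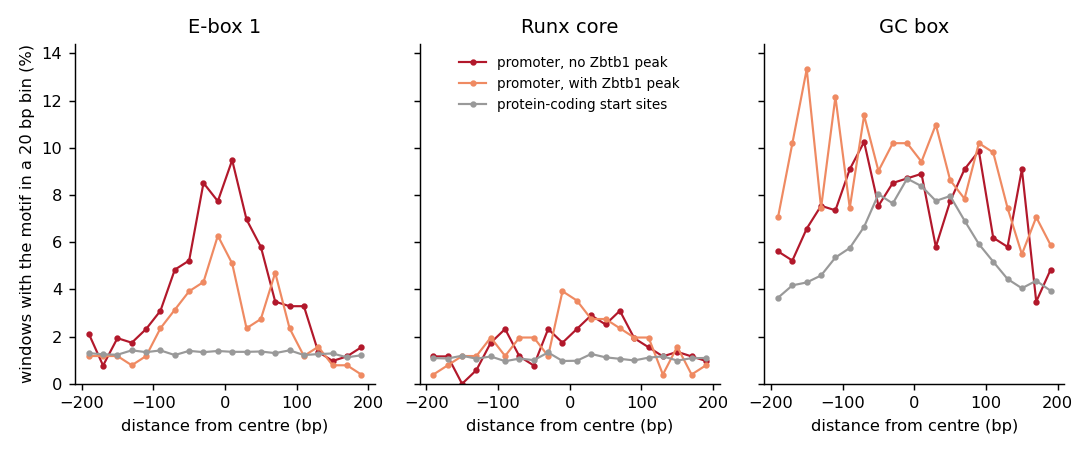
The horizontal axis is the distance from the peak centre or start site in bp and the vertical axis the percentage of windows with the motif in each 20 bp bin. CAGCTG (E-box 1) rises to 9.48% at the centre of promoter peaks without Zbtb1 and stays near 1.35% around start sites, whereas the GC box spreads over the whole window.

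Base composition differed between the classes as well. The median CpG ratio, the observed over the expected number of CpG, was 0.630 in the regions, 0.864 in shared promoter peaks, 0.963 in Zbtb1 promoter peaks without Cbfa2t3 and 0.628 at all protein-coding start sites. Median GC content was 62%, 66.5%, 72% and 59.5%. Whether composition has a part in the shares of letters was not tested. Within the regions, CAGCTG was present in 39.2%, 41.9%, 41.1% and 61.2% of 4 equal groups of peaks ordered by score from lowest to highest, and the median CpG ratio was 0.752, 0.641, 0.654 and 0.444. The median score was 29.7 with CAGCTG and 26.15 without it. The group of highest scores thus stood apart in both, while CAGCTG was at like shares in the other 3.

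The peak centres lay close to start sites. Their median distance was -93.5 bp, where minus is upstream, with 73.9% upstream and 44.8% within 100 bp of the start. In the GENCODE annotation of the same build, 227 centres (43.8%) lay outside genes, 119 (23.0%) in introns, 115 (22.2%) in untranslated exon sequence, 30 in exons without coding sequence and 27 (5.21%) in coding sequence. Of the shared promoter peaks, 3 (1.18%) had a centre in coding sequence. Start sites of different genes on both strands within 1 kb were found for 10.0% of the regions and 10.3% of all protein-coding genes.

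Histone H2B genes supplied 9 of the 27 coding centres. These were the core histone genes *Hist1h2br*, with 2 peaks that both scored 57.2, *Hist1h2bk* at 50.1, *Hist1h2bc* at 45.9, *Hist1h2bg* at 44.2, *Hist1h2bp* at 39.5, *Hist1h2bj* at 35.4, *Hist1h2bl* at 34.2 and *Hist1h2bn* at 33.5, all on chromosome 13. One stretch of 200 bp is given because these genes are near-identical copies, and it was picked with the values known.
Hist1h2br (chr13:21833835-21834034): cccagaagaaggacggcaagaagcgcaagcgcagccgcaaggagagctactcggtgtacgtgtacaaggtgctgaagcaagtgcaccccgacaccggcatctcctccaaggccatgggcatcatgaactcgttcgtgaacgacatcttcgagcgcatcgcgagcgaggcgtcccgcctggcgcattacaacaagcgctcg
The equal stretch of *Hist1h2bk* had the same 200 letters. Over the 36 pairs of H2B peaks the longest shared run was between 82 and 378 bp with a median of 180.5, and every peak shared at least 192 bp with another. The authors kept reads with more than 1 placement, so reads of 1 copy could be counted at several, and these 9 peaks are not independent. The stretch held none of the letters marked by capitals above. With *Hist2h3c1*, which had 2 peaks, and *Hist2h4*, 12 regions belonged to 10 histone genes, and their mRNA counts carry the same uncertainty.

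Of the 518 regions, 513 were matched to 507 genes, of which 469 are protein-coding, 28 lncRNA, 8 miRNA and 2 pseudogenes. Another Cbfa2t3 peak had the same nearest gene for 160 of these genes (31.6%), and a Zbtb1 peak had it for 134 (26.4%). A Zbtb1 promoter peak at another position was found for 34 genes, so the absence of Zbtb1 holds for the regions and not for every gene.

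The genes were widely expressed. Their median level in sgControl was 28.7 CPM (quartiles 5.72 and 89.1), against 43.6 CPM for genes of shared promoter peaks, 36.4 CPM for Zbtb1 promoter peaks without Cbfa2t3, 11.2 CPM for Cbfa2t3 peaks outside promoters without Zbtb1 and 0.195 CPM for all protein-coding genes. A mean above 1 CPM was found for 441 of 507 genes (87.0%), one above 10 CPM for 357 (70.4%) and one above 100 CPM for 113 (22.3%), whereas 38 were listed at 0. Genes of regions with an E-box had a median of 24.6 CPM and those without one 34.1 CPM. With a CpG ratio above 0.6 the median was 39.2 CPM, and otherwise 20.2 CPM. The highest levels were those of the chaperone *Hsp90ab1* at 5223 ± 80 CPM, the immunoglobulin joining chain *Jchain* at 1069 ± 188 CPM and the chaperone *Hsp90aa1* at 1031 ± 10.2 CPM (SD, n = 3 each). Because QuantSeq counts 1 end per mRNA, a level is a scaled number of reads and not one per length.

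**Figure D4:**
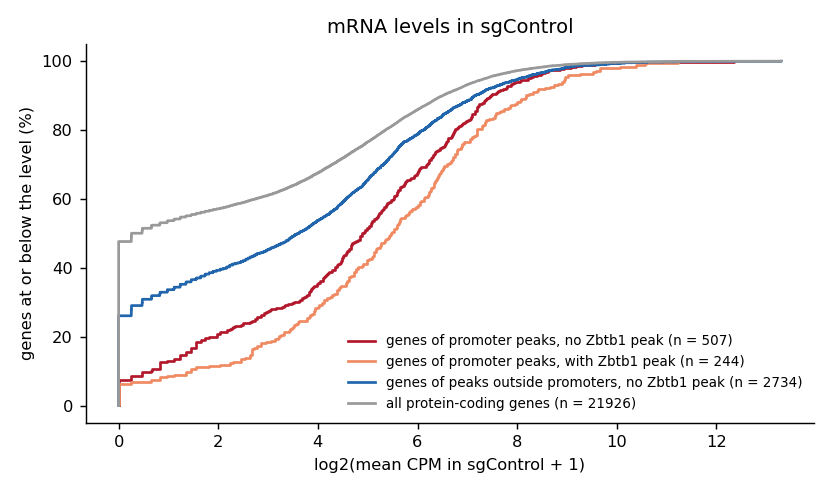
The horizontal axis is log2(mean CPM in sgControl + 1) and the vertical axis the percentage of genes at or below it, for genes of 3 peak classes and all protein-coding genes. Genes of promoter peaks without Zbtb1 (median 28.7 CPM) lie between those of shared promoter peaks (43.6 CPM) and of peaks outside promoters (11.2 CPM).

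The libraries held 1705416 to 2095447 reads, so that 3 reads, taken as the floor, stood for 1.43 to 1.76 CPM. None of the targeted genes had a decrease of its mRNA that passed the test. *Cbfa2t3* mRNA was at 210, 189 and 172 CPM in sgControl and at 340, 344 and 364 CPM in its own libraries (log2 fold change 0.88, SE 0.11, limma adjusted p = 1.67e-07), and *Zbtb1* mRNA rose from 61.7 ± 5.51 to 106 ± 9.91 CPM (SD, n = 3 each) in its own (adjusted p = 0.00102). *Cbfa2t2* mRNA was at 11.03, 12.2 and 12.3 CPM in sgControl and at 25.5, 23.9 and 16.4 CPM in its own libraries, higher without overlap (0.82, SE 0.33), but did not pass (adjusted p = 0.412). *Lmo2* mRNA was at 18.4 CPM in sgControl and 16.3 CPM in its own on average, with overlap (adjusted p = 0.956). Immunoblots of such LPs, described by the study and not analysed here, showed loss of the Lmo2, Zbtb1 and Cbfa2t3 proteins with their own sgRNAs. The groups are therefore called the libraries labelled with each sgRNA, and the directions below rest on these labels. In their own libraries the *Cbfa2t3* and *Zbtb1* mRNAs, and by its values the *Cbfa2t2* mRNA, were higher and not lower. Whether reads at the 3′ end follow the loss of a protein was not tested. The 12 OP9 stromal markers summed to at most 13.0 CPM in any library, with *Dcn*, *Col3a1* and *Lum* at 0 in all, 7 of 8 lymphoid progenitor markers were above 10 CPM in sgControl, and *Ebf1* reads at the 3′ end were present. The level of these *Ebf1* reads differed between sgZbtb1 and sgControl under all 14 alternatives tried in limma, edgeR and DESeq2 (adjusted p from 4.01e-07 to 0.00083). The 8 progenitor markers summed to 1277 to 1536 CPM in sgControl, 1276 to 1526 CPM in sgCbfa2t3 and 1307 to 1389 CPM in sgZbtb1, which overlap. Single markers did not: *Kit* (11.4 to 19.9 CPM against 21.5 to 22.9 CPM in sgControl), *Ptprc* (372 to 417 against 441 to 513 CPM) and *Il7r* (137 to 140 against 154 to 175 CPM) were lower and *Dntt* (95.9 to 131 against 71.4 to 85.1 CPM) was higher in every sgCbfa2t3 library, where 15.8% of all genes had no overlap. In sgZbtb1, *Kit* (6.87 to 16.2 CPM) and *Ptprc* (362 to 408 CPM) were lower and *Cd34* (361 to 378 against 225 to 313 CPM) was higher in every library, where 22.9% of all genes had no overlap. Their part in the results below was not tested.

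Changes were tested in limma on log2(CPM + 1) over 11554 genes with a mean above 1 CPM, of which 438 were genes of the regions. Of the other 69, 21 were at 0 in all libraries and 48 were above 0 in some. The 4 comparisons with sgControl share the same 3 sgControl libraries. In bulk RNA, fewer cells of a kind and less RNA per cell cannot be told apart.

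In the libraries labelled sgCbfa2t3, 6 of 438 genes passed an adjusted p under 0.05 (1.37%, against 0.537% of all genes). The lncRNA *Neat1*, the actin-severing protein *Gsn*, the interferon regulatory factor *Irf1*, *Jchain* and *Dock10*, an exchange factor for small GTPases, fell (5 genes, against 0.407% of all genes lower), and the DNA-binding protein *Arid3a* rose (1 gene, against 0.130% of all genes higher). Among the other classes, 0 of 223 genes of shared promoter peaks, 7 of 1359 genes of Zbtb1 promoter peaks without Cbfa2t3 and 22 of 1805 genes of Cbfa2t3 peaks outside promoters passed. At an unadjusted p under 0.05, 51 genes of the regions passed (11.6%, against 10.6% of all genes), so that over all 438 genes the share was near the background. The median log2 fold change was -0.05 in the regions and -0.01 over all genes, with 268 of 438 below 0.

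Stretches from the peaks of these 6 genes are shown because their mRNA passed the test. Strand, build and capitals are as above.
Jchain (chr5:88527892-88528081): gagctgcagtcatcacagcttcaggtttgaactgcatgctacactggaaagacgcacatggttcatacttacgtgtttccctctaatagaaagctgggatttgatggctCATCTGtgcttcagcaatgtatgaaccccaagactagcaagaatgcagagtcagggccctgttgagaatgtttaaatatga
Gsn (chr2:35256223-35256379): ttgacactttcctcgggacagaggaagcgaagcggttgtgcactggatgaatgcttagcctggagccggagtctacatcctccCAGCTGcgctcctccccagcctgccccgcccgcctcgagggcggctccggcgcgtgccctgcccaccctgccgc
Neat1 (chr19:5845434-5845633): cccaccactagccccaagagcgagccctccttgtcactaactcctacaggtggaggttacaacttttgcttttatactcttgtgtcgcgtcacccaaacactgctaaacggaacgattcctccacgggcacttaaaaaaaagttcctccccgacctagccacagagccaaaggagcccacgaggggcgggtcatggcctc
Dock10 (chr1:80665310-80665509): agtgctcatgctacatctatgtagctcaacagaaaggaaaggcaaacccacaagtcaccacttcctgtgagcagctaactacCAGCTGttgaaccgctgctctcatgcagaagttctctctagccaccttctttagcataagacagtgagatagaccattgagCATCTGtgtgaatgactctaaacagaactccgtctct
Irf1 (chr11:53769814-53770013): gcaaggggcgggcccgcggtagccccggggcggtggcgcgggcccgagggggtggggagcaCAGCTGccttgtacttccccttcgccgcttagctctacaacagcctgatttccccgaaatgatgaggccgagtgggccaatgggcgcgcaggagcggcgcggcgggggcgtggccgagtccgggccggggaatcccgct
Arid3a (chr10:79926816-79927015): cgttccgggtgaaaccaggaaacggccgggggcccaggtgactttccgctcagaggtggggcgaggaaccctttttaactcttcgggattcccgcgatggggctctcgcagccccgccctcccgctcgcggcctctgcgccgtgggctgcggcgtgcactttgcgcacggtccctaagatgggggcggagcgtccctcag
CAGCTG was present in the stretches of *Gsn*, *Dock10* and *Irf1*, CATCTG in those of *Dock10* and *Jchain*, and none of the marked letters in those of *Neat1* and *Arid3a*. A stretch is only a part of its peak and need not match the centre window used for the counts that follow. Of the 240 genes of regions with an E-box in the centre window 3 passed (1.25%), and of the 198 without one also 3 (1.52%), against 0.537% of all genes. At an unadjusted p under 0.05, 26 with an E-box were lower (10.8%) and 5 higher (2.08%), and 10 without one were lower (5.05%) and 10 higher (5.05%), against 6.27% and 4.32% of all genes. The difference between both sets was not tested. Their peak scores ran from 20.9 for *Arid3a* and 25.7 for *Irf1* over 28.1 for *Jchain*, 43.0 for *Dock10* and 47.7 for *Gsn* to 65.2 for *Neat1*.

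*Jchain* (ENSMUSG00000067149), which links the subunits of polymeric IgM and IgA, was at 853, 1159 and 1195 CPM in sgControl. It was at 606, 760 and 714 CPM in the libraries labelled sgCbfa2t3 and at 217, 318 and 256 CPM in those labelled sgZbtb1. The 3 groups did not overlap, and both sgRNA groups were lower. The log2 fold change on the log2(CPM + 1) scale was -0.61 (SE 0.11, adjusted p = 0.000934) in sgCbfa2t3 and -2.02 (SE 0.11, adjusted p = 4.88e-22) in sgZbtb1. The direct comparison of sgCbfa2t3 with sgZbtb1 gave 1.40 (SE 0.11, adjusted p = 2.56e-14), so that the decrease was larger in sgZbtb1. In the libraries labelled sgCbfa2t2 and sgLmo2 it was at 984 ± 238 and 1341 ± 215 CPM (SD, n = 3 each).

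*Gsn* (ENSMUSG00000026879) was at 61.6, 82.8 and 69.2 CPM in sgControl, 47.7, 39.4 and 36.0 CPM in the libraries labelled sgCbfa2t3 and 22.9, 30.1 and 25.04 CPM in those labelled sgZbtb1. Again all 3 groups were apart, in the same order as for *Jchain*. The log2 fold changes were -0.78 (SE 0.18, adjusted p = 0.0167) and -1.42 (SE 0.18, adjusted p = 1.8e-08), and the difference between both sgRNA groups narrowly missed the threshold (0.64, SE 0.18, adjusted p = 0.056). *Neat1* (ENSMUSG00000092274), the scaffold of paraspeckles, was at 45.3, 86.2 and 91.5 CPM in sgControl and at 25.2, 30.3 and 49.3 CPM in sgCbfa2t3. One library of each group overlapped here, and the values spread widely. Its log2 fold changes were -1.06 (SE 0.25, adjusted p = 0.0191) in sgCbfa2t3 and -1.14 (SE 0.25, adjusted p = 0.00146) in sgZbtb1, where it was at 22.9, 35.9 and 38.3 CPM.

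*Dock10* (ENSMUSG00000038608) was at 116, 149 and 157 CPM in sgControl, 80.4, 91.9 and 111 CPM in the libraries labelled sgCbfa2t3 and 111, 80.8 and 92.3 CPM in those labelled sgZbtb1. Both sgRNA groups lay below sgControl by the same amount, -0.57 (SE 0.15) on the log2 scale, with adjusted p = 0.0498 and 0.0113. *Arid3a* (ENSMUSG00000019564), a factor of early B cell and stem cell programmes, was at 149, 135 and 137 CPM in sgControl and at 197, 210 and 230 CPM in sgCbfa2t3. It was the gene of the regions that rose, by 0.59 on the log2 scale (SE 0.12, adjusted p = 0.00228). In sgZbtb1 it also rose, to 175, 228 and 171 CPM (0.43, SE 0.12, adjusted p = 0.0155).

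*Irf1* (ENSMUSG00000018899) behaved otherwise, and its peak was 118 bp from a Zbtb1 peak. It was at 70.3, 68.9 and 76.8 CPM in sgControl and at 39.1, 58.8 and 37.7 CPM in the libraries labelled sgCbfa2t3, with no overlap. In the libraries labelled sgZbtb1 it was at 75.4, 68.4 and 66.8 CPM, overlapping sgControl, with 1 library among the sgControl values and 2 just below them. The log2 fold change was -0.69 (SE 0.17, adjusted p = 0.0277) in sgCbfa2t3 and -0.04 (SE 0.17, adjusted p = 0.948) in sgZbtb1, and the direct comparison gave -0.65 (SE 0.17, adjusted p = 0.0267). The exact two-sided permutation test over 6 libraries gave p = 0.1, the smallest that 3 against 3 allow, for *Jchain*, *Gsn*, *Dock10*, *Irf1* and *Arid3a*, and p = 0.2 for *Neat1*.

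These calls depended on single libraries. Without replicate 1, 2 or 3 of sgCbfa2t3, 3, 3 and 4 genes passed, and without replicate 1, 2 or 3 of sgControl, 5, 2 and 1. Without the shares of all genes in these fits, a loss particular to the regions cannot be told from a general loss of calls. *Arid3a* passed under all 14 alternatives tried, with an adjusted p of at most 0.0378. *Jchain* missed without replicate 3 of sgControl (adjusted p = 0.0593), with no filter on low values and in DESeq2, at an adjusted p of at most 0.206. *Gsn* missed without replicate 2 or 3 of either group and with no filter, at up to 0.174. *Neat1* missed without replicate 1 or 2 of sgCbfa2t3 or replicate 2 or 3 of sgControl and with no filter, at up to 0.302, and DESeq2 gave it no adjusted p. *Irf1* missed without replicate 1 or 3 of sgCbfa2t3 or any replicate of sgControl, at up to 0.217, with no filter (0.116), with the 6 libraries fitted alone (0.0531) and in edgeR (0.0548). *Dock10* missed without replicate 1 or 2 of sgCbfa2t3 or replicate 2 or 3 of sgControl, at up to 0.327, with no filter (0.299), a pseudocount of 0.1 (0.0797) or a mean above 10 CPM required (0.0545), and in edgeR (0.0546) and DESeq2 (0.0582).

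**Figure D5:**
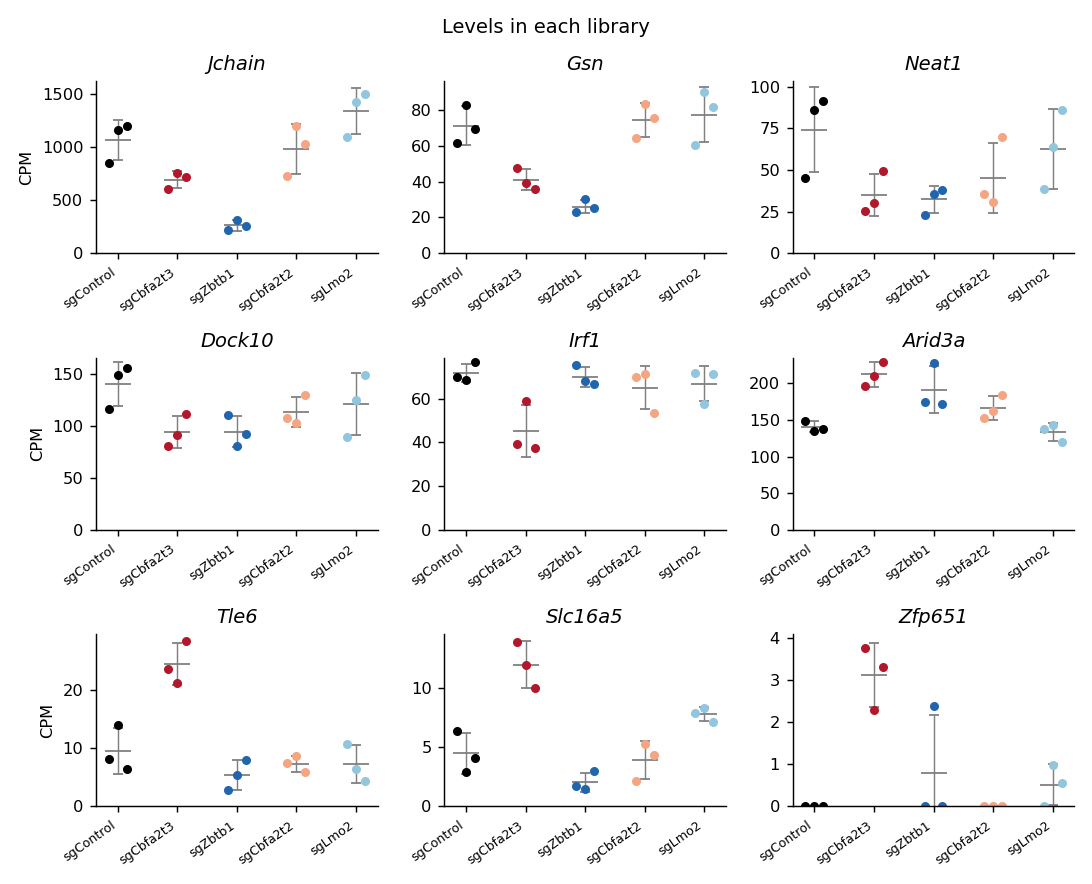
Points give the CPM in each of 3 libraries per group for 9 genes of the regions, with the mean and SD as bars, on axes that start at 0, so that the lower bar of *Zfp651* in sgZbtb1 ends at the axis. *Jchain*, *Gsn*, *Neat1* and *Dock10* are lower with both sgCbfa2t3 and sgZbtb1, *Irf1* is lower with sgCbfa2t3, and *Tle6*, *Slc16a5* and *Zfp651* have their highest values in sgCbfa2t3.

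The strongest peaks were examined gene by gene. The 6 regions on chromosome 18 were not considered for this, and since none of them scored above 80.6 the order is that of all regions. It was *Pgls* (326.9), *Pisd-ps3* (319.4), *Zfp651* (288.3), *Slc16a5* (279.6), *Smim6* (266.4), *Gpr20* (219.7), *Zmynd10* (197.1), *Sla2* (189.8), *Galk1* (188.2), *Tle6* (158.8), *Arpp21* (139.3) and *Poll* (122.9). *Zfp651* and *Zmynd10*, with means too low, and *Pisd-ps3*, which lies on an unplaced scaffold and was not matched to a gene, were not tested. None of the others passed against sgControl in sgCbfa2t3 at an adjusted p under 0.05. *Pgls*, an enzyme of the pentose phosphate pathway, was at 463, 464 and 514 CPM in sgControl and 534, 418 and 554 CPM in sgCbfa2t3, with overlapping groups. *Galk1* and *Poll* overlapped as well, with adjusted p = 0.631 and 0.989. *Sla2*, an adaptor that dampens T cell receptor signals, was at 53.5 ± 8.36 CPM in sgControl and 37.9 ± 5.38 CPM in sgCbfa2t3 (SD, n = 3 each, adjusted p = 0.293).

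Some of these genes had their highest values in the libraries labelled sgCbfa2t3. *Tle6* (ENSMUSG00000034758), a member of the Groucho corepressor family, was at 8.13, 13.9 and 6.45 CPM in sgControl, 23.6, 21.1 and 28.3 CPM in sgCbfa2t3 and 2.79, 5.26 and 7.86 CPM in sgZbtb1. All 3 sgCbfa2t3 libraries were above every other library, yet the log2 fold change of 1.32 (SE 0.39, adjusted p = 0.12) missed the threshold against sgControl. Under the alternatives its adjusted p ran from 0.0342, with the 6 libraries fitted alone, to 0.398. Against sgZbtb1 it was 2.08 (SE 0.39, adjusted p = 0.00044). *Slc16a5* (ENSMUSG00000045775), of the monocarboxylate transporter family, was at 6.39, 2.89 and 4.10 CPM in sgControl, 13.9, 11.99 and 9.97 CPM in sgCbfa2t3 and 1.68, 1.43 and 2.95 CPM in sgZbtb1. Its sgCbfa2t3 libraries too were the highest of all, with log2 fold changes of 1.29 (SE 0.45, adjusted p = 0.237) against sgControl and 2.12 (SE 0.45, adjusted p = 0.00259) against sgZbtb1. The sgZbtb1 values of 1.68 and 1.43 CPM were at the floor of 3 reads. By the study's thresholds, an unadjusted p under 0.05 with a log2 fold change beyond 1 and a mean above 10 CPM in either group, *Tle6* and *Slc16a5* rose and *Neil1*, *Neat1* and *Ldlrad4* fell in sgCbfa2t3 (5 genes of 438, against 0.658% of all genes). *Zfp651* (ENSMUSG00000013419), a zinc finger gene, had 7, 4 and 6 reads (3.75, 2.28 and 3.32 CPM) in sgCbfa2t3 and was listed at 0 in the 3 sgControl libraries, which allows up to 1.76 CPM each. It also had 2.39 CPM in 1 library labelled sgZbtb1 and 0 in the other 2. Its mean was under the 1 CPM required for the test. With no filter on low values it entered the test and passed (adjusted p = 0.0462), and with the 6 libraries fitted alone it did not (0.195).

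In the libraries labelled sgZbtb1, 32 of 438 genes passed (7.31%, against 4.79% of all genes), 11 higher (against 1.85%) and 21 lower (against 2.94%). Genes of shared promoter peaks passed in 19 of 223 cases (8.52%), and those of Zbtb1 promoter peaks without Cbfa2t3 in 72 of 1359 (5.30%). At an unadjusted p under 0.05, 87 genes of the regions passed (19.9%, against 17.6% of all genes). The median log2 fold change was -0.09 in the regions and -0.03 over all genes, with 283 of 438 below 0. In all 32 genes the 3 libraries of both groups did not overlap, which held for 113 of the 438 genes (25.8%) and 22.9% of all genes.

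Beside *Jchain* and *Gsn*, the genes that fell most among those above 10 CPM were *Mctp2*, a membrane protein with C2 domains (-1.61, SE 0.32, adjusted p = 0.000496), *Ppm1h*, a protein phosphatase (-1.49, adjusted p = 0.0271), *Hemgn*, a nuclear protein of haematopoietic cells (-1.46, adjusted p = 0.000634), *Ppp1r16b*, a phosphatase subunit (-1.23, adjusted p = 0.00306), the imprinted antisense lncRNA *Airn* (-1.20, adjusted p = 0.0156) and *Ldlrad4* (-1.19, adjusted p = 0.0264). *Hemgn* was at 20.3, 23.2 and 31.1 CPM in sgControl and 8.38, 8.61 and 7.86 CPM in sgZbtb1, well apart. Of the strongest peaks, *Gpr20*, a G protein-coupled receptor, fell from 4.07, 5.79 and 8.79 CPM to 1.68, 0 and 0.491 CPM (-2.13, SE 0.51, adjusted p = 0.00559), where all sgZbtb1 values were at or under the floor of 3 reads. *Arpp21*, an RNA-binding phosphoprotein, fell from 148, 120 and 137 CPM to 83.8, 80.8 and 64.3 CPM (-0.82, SE 0.15, adjusted p = 8.48e-05). In sgCbfa2t3 it was at 78.8, 99.9 and 111 CPM, also below sgControl in each library, with an adjusted p of 0.134.

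The 11 genes that rose did so by 0.23 to 0.88 on the log2 scale, and the log2 fold changes of the 21 that fell lay between -2.13 and -0.51. *Tmem119*, a transmembrane protein, rose from 52.3, 38.8 and 35.8 CPM to 75.4, 81.3 and 76.6 CPM (0.88, SE 0.19, adjusted p = 0.00111). *Lyl1*, a basic helix-loop-helix partner of E proteins in the Lmo2 complex, rose from 156, 167 and 155 CPM to 232, 240 and 213 CPM (0.51, SE 0.11, adjusted p = 0.000943). In sgCbfa2t3, *Lyl1* was at 196, 188 and 216 CPM, above every sgControl library, with an adjusted p of 0.197. *Hsp90aa1* rose from 1031 ± 10.2 to 1355 ± 5.24 CPM (SD, n = 3 each; 0.39, SE 0.07, adjusted p = 6.54e-05). *Tomm40*, of the mitochondrial import pore (0.47, adjusted p = 0.0137), *Etf1*, a translation release factor (0.40, adjusted p = 0.00943), *Emg1*, of ribosome assembly (0.39, adjusted p = 0.0403), and *Ptpn7*, a tyrosine phosphatase (0.39, adjusted p = 0.038), rose as well.

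Leaving out replicate 2 of sgZbtb1, or replicate 2 or 3 of sgControl, left 18, 19 and 21 genes. The shares of all genes in these fits are not set beside these counts, so a general loss of calls cannot be told from a loss in the regions. *Jchain*, *Gsn*, *Mctp2*, *Hemgn*, *Arpp21*, *Tmem119*, *Lyl1* and *Hsp90aa1* passed under all alternatives tried. Of the others named, *Ppp1r16b* and *Etf1* missed under 1 alternative each, *Tomm40* under 3, *Arid3a* under 4, *Dock10*, *Ppm1h*, *Airn*, *Ldlrad4* and *Emg1* under 5 each and *Ptpn7* under 6. *Gpr20* missed without replicate 2 of sgZbtb1 or replicate 3 of sgControl, at up to 0.0602, and *Neat1* with no filter on low values and in DESeq2, at up to 0.0898.

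Compared directly, 6 genes of the regions differed between the libraries labelled sgCbfa2t3 and sgZbtb1 (1.37%, against 1.13% of all genes), 5 higher (against 0.822%) and 1 lower (against 0.303%) in sgCbfa2t3. Beside *Jchain*, *Irf1*, *Tle6* and *Slc16a5*, these were *Mctp2* and *Mef2a*, a MADS-box transcription factor, neither of which passed against sgControl in sgCbfa2t3. *Mef2a* was at 102, 155 and 144 CPM in sgControl, 124, 143 and 170 CPM in sgCbfa2t3 and 65.4, 79.4 and 92.8 CPM in sgZbtb1. The sgZbtb1 libraries lay below all sgControl and sgCbfa2t3 libraries, with a difference of 0.87 (SE 0.15, adjusted p = 4.64e-05). *Mctp2* was at 15.5, 24.0 and 22.2 CPM in sgCbfa2t3 and 3.35, 6.21 and 12.8 CPM in sgZbtb1, without overlap (1.49, SE 0.32, adjusted p = 0.00346).

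In the libraries labelled sgCbfa2t2 and sgLmo2, 0 of 438 genes passed in limma, against 0.147% and 0.0173% of all genes. At an unadjusted p under 0.05, 47 genes passed in sgCbfa2t2 (10.7%, against 9.56% of all genes) and 26 in sgLmo2 (5.94%, against 5.65%). The count in edgeR was 0 in both, and in DESeq2 1 and 0.

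By peak score, 22 of the 110 tested genes in the highest of 4 score groups (36.7 and above) had an unadjusted p under 0.05 in sgCbfa2t3 (20.0%, against 10.6% of all genes), and 8 of 110, 16 of 109 and 5 of 109 in the groups below it from the lowest up (7.27%, 14.7% and 4.59%). In sgZbtb1 the highest group had 32 of 110 (29.1%, against 17.6% of all genes), and the others 19, 20 and 16 (17.3%, 18.3% and 14.7%). Median levels in sgControl were 29.9 CPM in the highest and 47.4 CPM in the lowest group. The score comes from the ChIP-seq and the changes from the mRNA, and the difference between these groups was not tested.

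Genes of known groups were looked up among the regions. Of 56 genes of lymphoid signal transduction, 10 had a region: *Rac2*, *Socs1*, *Ptpn7*, *Rassf5*, *Dock8*, *Pik3cg*, *Vav1*, *Stat3*, *Coro1a* and *Socs3*. None of them passed in sgCbfa2t3 and *Ptpn7* rose in sgZbtb1. *Rac2*, a small GTPase of blood cells, had the highest score of the group at 76.4 and was at 392 ± 3.4 CPM in sgControl and 405 ± 13.7 CPM in sgCbfa2t3 (SD, n = 3 each). *Stat3* was at 222 ± 38.1 and 177 ± 13.3 CPM. Of 21 genes of the Lmo2 complex, *Lyl1* (76.4) and the E protein gene *Tcf12* (20.7) had a region. Of 69 haematopoietic transcription factors, *Lyl1*, *Klf13* and *Gfi1* did.

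Of 41 T lineage and Notch genes, *Cd28*, with a score of 25.1, and *Cd5*, with 21.2, had a region, and of 27 B lineage genes none did. Of 34 myeloid, erythroid and megakaryocyte genes, *Csf2rb* did, and of 42 receptors and adhesion molecules, *Tnfrsf1b* and *Csf2rb*. Among 37 genes of NCoR, Sin3, HDAC and Polycomb complexes these were *Rcor2* and *Tbl1x*, among 30 of survival and death *Birc5* and *Mdm2*, and among 40 of the cell cycle *Cdk4*. Of the 23 genes of these groups that had a region, all of them tested, *Lyl1* and *Ptpn7* passed in sgZbtb1 (against 4.79% of all genes) and none in sgCbfa2t3 (against 0.537%). Over the whole lists, with or without a region, the genes that passed in sgCbfa2t3 were 1 receptor or adhesion molecule higher and 2 lower of 39 tested, 2 of 32 T lineage and Notch genes lower, 2 of 39 cell cycle genes higher, 1 of 18 genes of the Lmo2 complex higher, 1 of 16 myeloid, erythroid and megakaryocyte genes higher, and 1 each of 17 B lineage genes, 62 haematopoietic transcription factors and 54 signal transduction genes lower, against 0.130% of all genes higher and 0.407% lower. By the same test in sgZbtb1, 1 haematopoietic transcription factor was higher and 8 lower of 62. No T lineage and Notch gene was higher and 7 of 32 were lower, and no B lineage gene was higher and 4 of 17 were lower. Of 39 receptors and adhesion molecules 3 were higher and 5 lower, and of 54 signal transduction genes 2 and 5. Of 18 genes of the Lmo2 complex 2 were higher and 2 lower, of 26 of survival and death 2 and 2, of 39 of the cell cycle 1 and 2, of 37 of the NCoR, Sin3, HDAC and Polycomb complexes 1 and 1, and of 16 myeloid, erythroid and megakaryocyte genes 0 and 1. The shares of all genes were 1.85% higher and 2.94% lower. A targeted gene that belongs to a list was counted in it, also in its own libraries. In housekeeping groups, 2 cytosolic ribosomal protein genes, 1 mitochondrial one, *Psmc3ip*, a recombination factor that the proteasome list caught by its name, 2 of translation, 2 of the respiratory chain and 3 of 73 splicing genes had a region, and of these the splicing factor *Prpf19* rose in sgZbtb1, from 174 ± 9.11 to 228 ± 10.5 CPM (SD, n = 3 each, adjusted p = 0.0173), a call lost without replicate 1 or 3 of sgZbtb1 or replicate 3 of sgControl (up to 0.101). Over the whole housekeeping lists, the genes that passed as higher in sgZbtb1 were 5 of 77 mitochondrial and 4 of 135 cytosolic ribosomal protein genes, 5 of 66 splicing genes, 4 of 97 of translation, 3 of 38 of the proteasome and 3 of 91 of the respiratory chain, against 1.85% of all genes, and in none of these lists did a gene pass as lower in sgZbtb1 or in either direction in sgCbfa2t3. Of the 12 OP9 stromal markers none had a region. Of 11 *Zfp* genes, 9 entered the test, and of the 10 histone genes, 8 did, with none passing in sgCbfa2t3 or sgZbtb1. The 8 miRNA genes, *Mir7671*, *Mir762*, *Mir3960*, *Mir23a*, *Mir5131*, *Mir196b*, *Mir7115* and *Mir8096*, were not in the test. QuantSeq reads polyadenylated RNA and does not measure mature miRNAs or mRNAs without a poly(A) tail. Whether the histone mRNAs carried such a tail was not tested, so their missing calls do not show that they were unchanged.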

How the data were processed

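ChIP-seq peaks came from 2 Zbtb1, 2 Cbfa2t3 and 2 input samples, and mRNA from 15 QuantSeq libraries (5 groups of 3). Per the study's methods and the submitters' notes, the authors mapped ChIP reads to mm10 with Bowtie 1.1.1, keeping reads with several placements, called peaks with HOMER against input, kept those reproducible between replicates by IDR and deposited 1 list per factor with a score, a fraction (focus ratio) and the distance to the nearest start site for each peak. QuantSeq reads were trimmed with fastp and mapped to mm10 with STAR. The table the authors deposited is named TPM, but its values are CPM: dividing by the value of 1 read gave whole numbers for about 100.0% of values (tolerance 0.05 reads). No read depth of the ChIP-seq was used here.

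Regions were taken by the promoter annotation and an overlap of 0 bp with Zbtb1 peaks, and matched to genes by Ensembl identifier (454) or symbol (59). The regions and gene lists were chosen with earlier results of these data known. Sequences came from the GRCm38 genome of RefSeq and were searched for 14 motifs. The test for changes was that of limma 3.58.1 (R 4.3.3), with a trend in its moderated variances, fitted to log2(CPM + 1) of 15 libraries with group as the only term, over 11554 genes with a mean above 1 CPM, with two-sided p-values and Benjamini-Hochberg adjustment over all of them. P-values measure the spread between libraries. Alternatives used edgeR 4.0.16 and DESeq2 1.42.0 on the recovered reads. On simulated data for sgCbfa2t3 against sgControl, 196 of 200 planted 4-fold changes were recovered over 11563 genes, with 12 false calls. The changes were planted only in genes with a mean above 10 CPM, and all genes had the same simulated dispersion. The recovery of smaller changes, or of genes at lower levels, was not tested. Exact permutation tests had 6 libraries and a smallest p of 0.1. Named were the genes of the 12 strongest peaks outside chromosome 18, passing genes (at most 8 per direction above 10 CPM in either group), list members and targeted genes.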

Additional observations from a re-analysis of the deposited data

Results flagged for a closer look

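For 6 genes, the changes in the libraries labelled sgCbfa2t3 and sgZbtb1 differed by the direct test of one against the other in limma, given as log2 differences of sgCbfa2t3 minus sgZbtb1. *Slc16a5* differed by 2.12, *Tle6* by 2.08, *Mctp2* by 1.49, *Jchain* by 1.40, *Mef2a* by 0.87 and *Irf1* by -0.65. For *Slc16a5*, some sgZbtb1 values were at the floor of 3 reads. *Jchain* fell in both groups against sgControl and more in sgZbtb1. *Mctp2* and *Mef2a* fell in sgZbtb1 (-1.61 and -0.74) and were at -0.12 and 0.13 in sgCbfa2t3, which did not pass. *Irf1* fell in sgCbfa2t3 (-0.69) and was at -0.04 in sgZbtb1, and *Tle6* and *Slc16a5* were above sgControl in sgCbfa2t3 and below it in sgZbtb1 on average. The call for *Mctp2* was lost without replicate 1 of sgZbtb1 (adjusted p = 0.123) and with no filter on low values, and that for *Irf1* under 6 alternatives. Groups of 3 libraries were not tested for outlying libraries.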

How the results depend on the processing

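The number of regions was 217 with a score of at least 30, and between 439 and 664 when the overlap or the promoter was defined otherwise. For sgCbfa2t3 against sgControl, 2 genes passed with no filter on low values and 3 with a score of at least 30, and 1 to 5 with a library left out. For sgZbtb1 these were 19, 16 and 18 to 32, and 10 passed by the study's thresholds. For sgCbfa2t2, 2 passed with the 6 libraries alone, 1 in DESeq2, 1 by the study's thresholds and 0 to 1 with a library left out. For sgCbfa2t3 against sgZbtb1, 2 passed with a score of at least 30 and 5 to 7 with a library left out. All these are counts of genes of the regions alone. Without the shares of all genes in the same fits, they do not show whether the regions moved apart from all genes. In windows of 100 bp, CAGCTG was present in 32.7%, CATCTG in 14.1%, the Runx core in 10.6%, GATA in 1.55%, CCGGAAG in 7.16% and the GC box in 30.4%, fewer because the window is smaller. At a score of at least 30, CAGCTG was present in 54.6%, CATCTG in 23.1% and the GC box in 41.7%. The causes of the other moves were not tested. No change of a named gene that passed its test changed its sign under the alternatives, whereas values near 0 that did not pass could, such as that of *Irf1* in sgZbtb1 without replicate 3 of sgControl.

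The groups share replicate numbers, but libraries with the same number did not deviate together (mean correlation 0.0279, from -0.0072 to 0.0656 over 30 pairs). With the replicate block, 7 genes passed in sgCbfa2t3 (against 0.805% of all genes in that fit), 39 in sgZbtb1 (6.14%), 1 in sgCbfa2t2 (0.312%), 1 in sgLmo2 (0.121%) and 10 between sgCbfa2t3 and sgZbtb1 (1.44%).

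Depth limits low genes: 3 reads are 1.43 to 1.76 CPM. The peak lists give no depth or replicate values, so neither an absent Zbtb1 peak nor a score has an error.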
